A study of Mus musculus with 5 samples.

Results

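The AP-1 and early response genes described here are 10 genes taken by name from a fixed list: Fos, Fosb, Jun, Junb, Jund, Dusp1, Zfp36, Ier2, Nfkbia and Btg2. They are 10 of the 15952 genes that had a UMI (unique molecular identifier, 1 counted RNA molecule) in the kept cells. All 10 were found in the libraries. The values come from 1482 single T cells of the brain parenchyma of 5 mice: TAT-CRE 207 gave 311 of them, TAT-CRE 208 gave 303 and TAT-CRE 215 gave 298, while PBS 216 gave 296 and PBS 218 gave 274.

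All mice carried loxP-flanked glucocorticoid receptor alleles (strain Grl1loxP/loxP) and all received foot shocks in a pair of sessions on consecutive days. The TAT-CRE mice, aged 18, 18 and 19 weeks, had been given TAT-CRE, a Cre recombinase that enters cells, into the brain ventricles; the PBS mice, aged 19 and 16 weeks, had been given PBS and are called Sham in their replicate labels. The series' design text names the choroid plexus as the site where this receptor was to be knocked down, and brains were taken 14 days after the stress. No unstressed mice enter these libraries, and the choroid plexus was left out of the tissue, so the knockdown at its site was not measured. The sort gate was CD45+ CD11b- TCR-beta+, with 1 cell per well of a 384-well plate and 1 plate per mouse. An effect of a plate therefore cannot be told apart from a difference between mice.

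Early response genes are transcribed within minutes of a signal because their promoters are bound by factors that are already in the cell, such as CREB, serum response factor and NF-kappaB. Fos and Jun family proteins pair to form AP-1, the factor through which T cell receptor signals reach many cytokine genes. Other early genes shut the response down: Dusp1 dephosphorylates MAP kinases, Zfp36 (tristetraprolin) destroys short-lived mRNAs, Nfkbia (IkappaB alpha) holds NF-kappaB in the cytoplasm, and Btg2 slows proliferation and promotes deadenylation of mRNA. Fos, Jun and Dusp1 transcripts are also known to rise while a tissue is dissociated into single cells.

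The proximal promoters of 4 members are shown, picked after the values below were seen. Fos and Junb stood highest in CD4 cells relative to CD8 cells. Dusp1 and Btg2 were the common pair with an odds ratio of co-detection above 1 in every mouse. Sequences are RefSeq's, on GRCm38.p6, 300 bases each in the direction of transcription, from 250 bases before the annotated start to 50 bases from it. Capitals mark TGACG, the core that CREB and ATF proteins bind, and its full palindrome TGACGTCA, which contains TGACG on both strands.
Fos (chr12:85473640-85473939, + strand): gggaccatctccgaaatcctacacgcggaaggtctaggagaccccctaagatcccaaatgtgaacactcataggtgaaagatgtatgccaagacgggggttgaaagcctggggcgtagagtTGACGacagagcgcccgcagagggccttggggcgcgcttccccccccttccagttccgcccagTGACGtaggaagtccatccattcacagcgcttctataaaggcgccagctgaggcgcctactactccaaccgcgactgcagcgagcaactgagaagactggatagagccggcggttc
Junb (chr8:84978699-84978998, - strand): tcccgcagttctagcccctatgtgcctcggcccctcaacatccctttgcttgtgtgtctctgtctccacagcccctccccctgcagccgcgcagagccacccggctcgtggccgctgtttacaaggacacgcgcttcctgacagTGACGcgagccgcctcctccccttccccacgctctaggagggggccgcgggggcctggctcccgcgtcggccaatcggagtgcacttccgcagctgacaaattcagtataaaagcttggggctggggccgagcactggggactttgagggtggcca
Dusp1 (chr17:26508423-26508722, - strand): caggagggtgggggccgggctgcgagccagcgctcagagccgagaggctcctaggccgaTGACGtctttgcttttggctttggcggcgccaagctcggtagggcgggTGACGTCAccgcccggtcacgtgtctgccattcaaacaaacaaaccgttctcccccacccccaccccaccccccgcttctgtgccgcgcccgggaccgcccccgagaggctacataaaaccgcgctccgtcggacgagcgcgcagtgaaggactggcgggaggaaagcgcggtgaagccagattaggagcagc
Btg2 (chr1:134079106-134079405, - strand): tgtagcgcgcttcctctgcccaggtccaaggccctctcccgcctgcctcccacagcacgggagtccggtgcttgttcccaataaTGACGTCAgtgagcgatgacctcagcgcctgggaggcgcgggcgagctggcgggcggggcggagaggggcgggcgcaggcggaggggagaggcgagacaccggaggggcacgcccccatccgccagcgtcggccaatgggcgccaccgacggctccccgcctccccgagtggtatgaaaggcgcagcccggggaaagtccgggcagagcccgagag

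Counted from the start, with -1 the base before it, TGACG begins at -129 and -66 in the Fos promoter and at -106 in the Junb promoter. The palindrome TGACGTCA begins at -143 in Dusp1 and at -166 in Btg2. Promoters were found for 9 of the 10 members, at the starts that RefSeq gives. The window of Jund (chr8:70697489-70697788) lies upstream of the gene as the GENCODE M21 annotation places it (chr8:70698949-70700616). A motif missing from it is thus not read as a trait of the Jund promoter. The windows of Dusp1 and Zfp36 lie inside the spans that GENCODE M21 gives these genes, away from their outer ends. On either strand TGACG was in 5 of the 9 (Fos, Fosb, Junb, Dusp1 and Btg2), against 20.8% of all 32851 promoters of the same length. TGACGTCA was in 2 of the 9, Dusp1 and Btg2, against 1.79% of all promoters. Zfp36 held a CArG box, the serum response factor motif, written ccataaaagg in this window, as 1.63% of all promoters do. The NF-kappaB motif was in 3 of the 9 (Fos, Fosb and Nfkbia), against 8.46% of all promoters, and in Nfkbia it reads ggaaattccc. The AP-1 motif TGANTCA was in 0 of the 9 windows and in 7.81% of all promoters. These are matches of letters in a short window and say nothing of binding in these cells.

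The libraries differed in depth, with a median of 1953, 993 and 1600.5 UMIs per kept cell in TAT-CRE 207, 208 and 215, against 1410 and 2660 in PBS 216 and 218. Ribosomal RNA genes took 28.3% of the UMIs of TAT-CRE 208 and between 43.9% and 48.0% in the other mice. A T cell marker UMI was present in 89.8% of kept cells, and neutrophil and astrocyte markers were at 0 throughout. A UMI of at least 1 marker from the lists for other cell types was present in 28.5% of cells. The leading such genes were Ccr2, Mbp, Eomes and Pecam1, some of which, such as Ccr2 and Eomes, T cells themselves can express. Such a UMI therefore does not by itself mark a cell of another type. The microglial genes P2ry12 and Tmem119 and the macrophage genes Lyz2, Csf1r and Adgre1 were at 0. All 5 plates used the same 384 well barcodes, so cells are told apart by plate. The 20 empty wells held 17 to 160 UMIs each; of the members, Dusp1 was seen there, with 3 UMIs in 1 well.

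Within single cells the members were sparse. Junb, a Jun family subunit of AP-1, had a UMI in 324 cells (21.9%), Dusp1 in 225 (15.2%), Btg2 in 208 (14.0%) and Fos in 180 (12.1%). Jund had a UMI in 171 cells, Nfkbia in 157, Ier2, a short nuclear protein encoded by an immediate early gene, in 104, and Zfp36 in 74. Fosb, a close relative of Fos, was found in 28 cells and Jun, the founding Jun protein, in 14. These shares depend on depth and are not read as a ranking of the genes by level.

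A few cells carried many copies. The highest count of Fos in 1 cell was 17 UMIs and that of Junb 22, and 49 of the 180 cells with Fos had 5 or more UMIs of it, as did 49 of the 225 cells with Dusp1. Jund was spread most evenly: 101 of its 171 cells (59.1%) had a single UMI and 5 cells had 5 or more. The 10 cells with most Fos held 21.3% of all Fos UMIs, and the 10 with most Junb held 13.7% of all Junb UMIs. For Fosb and Jun the top 10 cells held 67.1% and 87.8%, so their levels per mouse rest on a handful of cells. Cells with a UMI of a member were deeper than cells without one, with a median of 2084 against 1584.5 UMIs for Fos and 2085 against 1530.5 for Junb.

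Cells were classed by their own coreceptor transcripts: 85 cells had a Cd4 UMI and none of Cd8a or Cd8b1 (CD4 cells), 630 had a Cd8a or Cd8b1 UMI and none of Cd4 (CD8 cells), 25 had both and 742 had neither. CD4 cells numbered 22, 19, 23, 13 and 8 in TAT-CRE 207, 208 and 215 and PBS 216 and 218, so each mouse contributes few. Counts were summed per mouse and class and compared with the mouse as a block by edgeR's quasi-likelihood test over all genes that passed its filter on low counts. Levels are TMM-normalised CPM, a member's share of all UMIs in a sum, scaled to CPM, after edgeR's correction for composition. Of 731 genes tested, 5 passed an adjusted p threshold of 0.05 (0.684%): Cd4, Cd8a and Cd8b1, which define the classes, and Ccl5 and Ly6c2, both lower in CD4 cells. Of the members, 5 reached the test (Fos, Junb, Dusp1, Nfkbia and Btg2), and 0 of them passed; at an unadjusted p under 0.05 the test called 50 genes (6.84%), and DESeq2 called 22 of 1561 genes (1.41%).

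Fos, at chr12:85473890-85477273 on the + strand of mm10, stood higher in CD4 cells than in CD8 cells in 5 of 5 mice. In CD4 cells it had 228, 614 and 682 CPM in TAT-CRE 207, 208 and 215, against 269 and 512 CPM in PBS 216 and 218. CD8 cells of the same mice had 131, 181 and 155 CPM and 91.1 and 244 CPM of Fos. The lowest CD4 value, of TAT-CRE 207, lay below the highest CD8 value, of PBS 218, so the classes overlap across mice but not within a mouse. The means were 461 ± 204 CPM in CD4 cells and 160 ± 57.2 CPM in CD8 cells (SD, n = 5 mice), a log2 fold change of 1.46 ± 0.40 (SE). For Fos the edgeR quasi-likelihood test gave an adjusted p of 0.193 and DESeq2 an adjusted p of 0.0124, so its call depends on the tool. Of all genes tested, 3.28% were higher in CD4 cells in 5 of 5 mice. The CD4 value rests on 85 UMIs in 17 cells, and in PBS 218 a single cell held 17 of the 18 Fos UMIs.

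Junb was higher in CD4 cells in 4 of 5 mice. Its CD4 levels were 531, 1949 and 484 CPM in TAT-CRE 207, 208 and 215, against 154 and 540 CPM in PBS 216 and 218. CD8 cells of these mice had 170, 320 and 208 CPM and 287 and 275 CPM of Junb. PBS 216 was the exception, with a lower level in CD4 cells, and TAT-CRE 208 stood far above the other CD4 values. Means of Junb were 732 ± 699 CPM in CD4 cells and 252 ± 61.3 CPM in CD8 cells (SD, n = 5 mice), a log2 fold change of 1.27 ± 0.39 (SE) with an adjusted p of 0.320 by edgeR and 0.0455 by DESeq2. Without TAT-CRE 208 the log2 fold change of Junb was 0.71. The Junb gene lies at chr8:84974484-84978718 on the - strand of mm10 and overlaps Prdx2 on the + strand, which had 198 UMIs; whether counting used the strand is not given in the sources used here, so reads of the pair may be mixed.

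**Figure D1:**
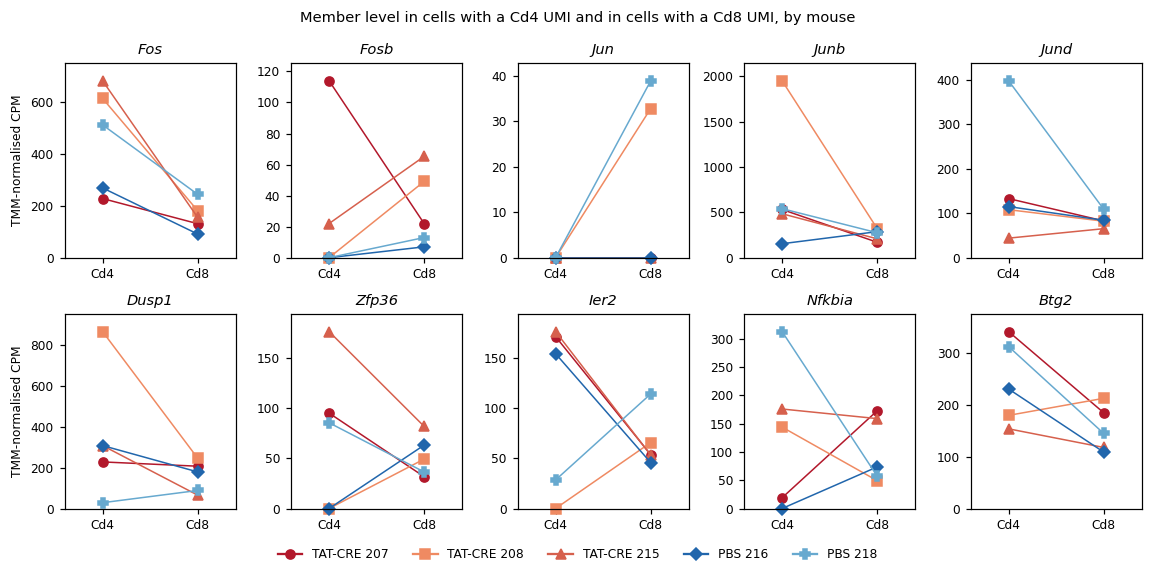
Level of each member (TMM-normalised CPM, linear axes that differ between panels) in CD4 cells, left, and CD8 cells, right; each line is 1 mouse, summed over its cells of that class. Fos is higher in CD4 cells in all 5 mice, and Junb in all but PBS 216; Jun is at 0 in CD4 cells.

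Both genes were also seen in more CD4 than CD8 cells. Fos had a UMI in 17 of 85 CD4 cells (20%) and in 70 of 630 CD8 cells (11.1%), and Junb in 34 (40.0%) and 123 (19.5%). After each cell was thinned to 400 UMIs, which matches total UMIs but not the share of ribosomal RNA among them, Fos was expected in 10.9 ± 2.50% of CD4 cells and in 4.55 ± 2.09% of CD8 cells (SD, n = 5 mice), with CD4 cells higher in 5 of 5 mice. Junb was expected in 16.9 ± 10.8% of CD4 cells and 7.69 ± 3.08% of CD8 cells, with CD4 cells higher in 4 of 5 mice. The median depth per mouse ran from 1306 to 3986.5 UMIs in CD4 cells and from 1084.5 to 3088 in CD8 cells. A UMI of another cell type's marker was present in 30.6% of CD4 cells and 31.6% of CD8 cells. Summed over their lists, endothelial markers stood at 154 CPM in CD4 cells and 46.9 CPM in CD8 cells, all of it Pecam1, with Cldn5 and Flt1 at 0, and oligodendrocyte markers at 134 and 89.1 CPM. Without all cells that had any such UMI, 59 CD4 cells remained and the log2 fold changes were 1.16 for Fos and 0.36 for Junb.

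The other members that reached the test had smaller fold changes between the classes. Dusp1 averaged 348 ± 312 CPM in CD4 cells and 157 ± 77.5 CPM in CD8 cells (log2 fold change 0.89 ± 0.56, edgeR adjusted p = 0.875), higher in CD4 cells in 4 of 5 mice. Btg2 averaged 244 ± 81.5 and 154 ± 44.4 CPM in the same order (0.67 ± 0.49, edgeR adjusted p = 0.917), also higher in CD4 cells in 4 of 5 mice. Nfkbia, at 130 ± 127 CPM in CD4 cells and 102 ± 58.9 CPM in CD8 cells, had a log2 fold change of 0.14 ± 0.83 (edgeR adjusted p = 0.995). The median log2 fold change was 0.89 over these 5 members and -0.07 over all 731 genes, of which 41.9% were higher in CD4 cells. The filter on low counts used the same CD4 and CD8 sums, so a member's CD4 level could help it into this median. Of the members left out, Fosb averaged 27.2 CPM in CD4 cells and 31.3 CPM in CD8 cells, and Jun 0 and 14.4 CPM. Jund, Zfp36 and Ier2, also left out, had higher means in CD4 cells. The part of the filter in this median was not tested.

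Jund, Zfp36, Ier2, Fosb and Jun did not pass edgeR's filter on low counts; DESeq2, run without that filter, gave an adjusted p of 0.8 for Jund and 0.921 for Ier2 and none for the others. Jund averaged 160 ± 137 CPM in CD4 cells and 84.6 ± 15.6 CPM in CD8 cells; 4 of 5 mice had it higher in CD4 cells, and PBS 218, at 398 CPM, held 11 of its 14 UMIs in 1 cell. Zfp36 and Ier2 were higher in CD4 cells in 3 of 5 mice each. Fosb had 7 UMIs in 2 CD4 cells and 38 UMIs in 14 CD8 cells. Jun had a UMI in 0 of 85 CD4 cells, which allows a share of up to 3.53%, and in 5 of 630 CD8 cells (0.794%), so no difference was detectable at this depth.

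A test of whether the gap between CD4 and CD8 cells differed between treatments called 0 of 731 genes (edgeR interaction term). For Junb the difference of the log2 gaps, TAT-CRE minus PBS, was 1.59 (unadjusted p = 0.0441, edgeR adjusted p = 0.886), and for Fos it was 0.30 (edgeR adjusted p = 0.973). The TAT-CRE side of the Junb value includes the high CD4 level of TAT-CRE 208.

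Cells with neither coreceptor transcript made up 742 of the 1482 cells and were shallower, with a median per mouse of 949 to 2455 UMIs. At a matched 400 UMIs, a cell was expected to show at least 1 member in 33.9%, 56.4% and 35.3% of CD4 cells of TAT-CRE 207, 208 and 215 and in 36.7% and 56.7% of those of PBS 216 and 218. In CD8 cells the shares were 28.0%, 36.4% and 22.1% in the TAT-CRE mice, against 24.6% and 29.7% in the PBS mice. Cells with neither transcript gave 34.8%, 43.3% and 34.0% in the TAT-CRE mice, against 30.8% and 39.1% in the PBS mice. CD8 cells were thus the lowest class in each of the 5 mice. Of the single members, Dusp1 and Btg2 were found in a larger share of cells with neither transcript than of CD8 cells in 5 of 5 mice, Btg2 barely so in TAT-CRE 215. They are named after their values were seen. Each of the other members was lower in cells with neither transcript in 1 mouse or more. The share of all genes that were higher there in 5 of 5 mice was not computed. Dusp1 was at 10.7%, 8.75% and 8.99% of cells with neither transcript in TAT-CRE 207, 208 and 215, against 9.36% and 4.08% in PBS 216 and 218. The CD8 cells of these mice gave 6.77%, 7.54% and 2.10%, and 6.50% and 3.23%. Btg2 was at 5.82%, 9.76% and 3.51% of cells with neither transcript in the TAT-CRE mice, against 7.24% and 7.6% in the PBS mice, and its CD8 shares were 4.41%, 5.81% and 3.45%, then 2.77% and 4.54%. No test was run on these shares.

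TAT-CRE and PBS mice were then compared over all kept cells. The edgeR quasi-likelihood test called 0 of 6341 genes (0%), with 240 at an unadjusted p under 0.05 (3.78%), and DESeq2 called 2 (0.0125%). All 10 members were tested and had an edgeR adjusted p of 0.999. Of the members 5 were higher in TAT-CRE cells, with a median log2 fold change of 0.15 over the 10 and 0.00 over all genes. With 3 mice against 2, an adjusted p above the threshold does not show that levels were equal. In these sums, fewer cells with a transcript and less RNA per cell cannot be told apart.

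Fosb was the single member whose groups did not overlap, as was the case for 18.5% of all genes tested, 9.34% with all TAT-CRE mice above and 9.18% with all below. It had 30.6, 21.7 and 55.1 CPM in TAT-CRE 207, 208 and 215, against 9.60 and 14.4 CPM in PBS 216 and 218. The means were 35.8 ± 17.3 CPM (SD, n = 3) in TAT-CRE cells and 12 ± 3.40 CPM (SD, n = 2) in PBS cells, a log2 fold change of 1.54 ± 0.73 (unadjusted p = 0.0546, edgeR adjusted p = 0.999). This rests on 59 UMIs in the TAT-CRE mice and 17 in the PBS mice, and on 7, 3 and 10 cells against 3 and 5 cells.

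Fos and Nfkbia varied more between the PBS mice than between the groups. Fos had 185, 204 and 215 CPM in the TAT-CRE mice, against 136 CPM in PBS 216 and 300 CPM in PBS 218 (log2 fold change -0.13 ± 0.32, edgeR adjusted p = 0.999). The TAT-CRE mice lay close together between the PBS mice. Nfkbia had 139, 154 and 211 CPM in the TAT-CRE mice, against 61.4 CPM in PBS 216 and 151 CPM in PBS 218 (0.64 ± 0.38, edgeR adjusted p = 0.999). Jun followed the same split within PBS, with 0 UMIs in the 296 cells of PBS 216, which allows a share of up to 1.01%, and 24 UMIs in 7 cells of PBS 218; the TAT-CRE mice had 5, 7 and 5 UMIs.

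Among the remaining AP-1 subunits, Junb had 249, 468 and 334 CPM in TAT-CRE 207, 208 and 215, against 297 and 262 CPM in PBS 216 and 218, and TAT-CRE 208 was the highest. Jund had 76.4, 115 and 83.6 CPM in the TAT-CRE mice, against 106 and 131 CPM in the PBS mice, with TAT-CRE 208 inside the PBS range. Of the inhibitors, Dusp1 had 266, 344 and 213 CPM in the TAT-CRE mice, against 265 and 119 CPM in the PBS mice, and PBS 218 stood lowest. Zfp36 had 45.8, 54.4 and 103 CPM in the TAT-CRE mice, against 51.8 and 44.4 CPM in the PBS mice, with TAT-CRE 215 alone outside a narrow band. Ier2 and Btg2 overlapped as well, at 78.9 ± 14.7 CPM in TAT-CRE cells and 93.4 ± 34.3 CPM in PBS cells for Ier2 and at 195 ± 67 and 199 ± 15.5 CPM for Btg2.

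**Figure D2:**
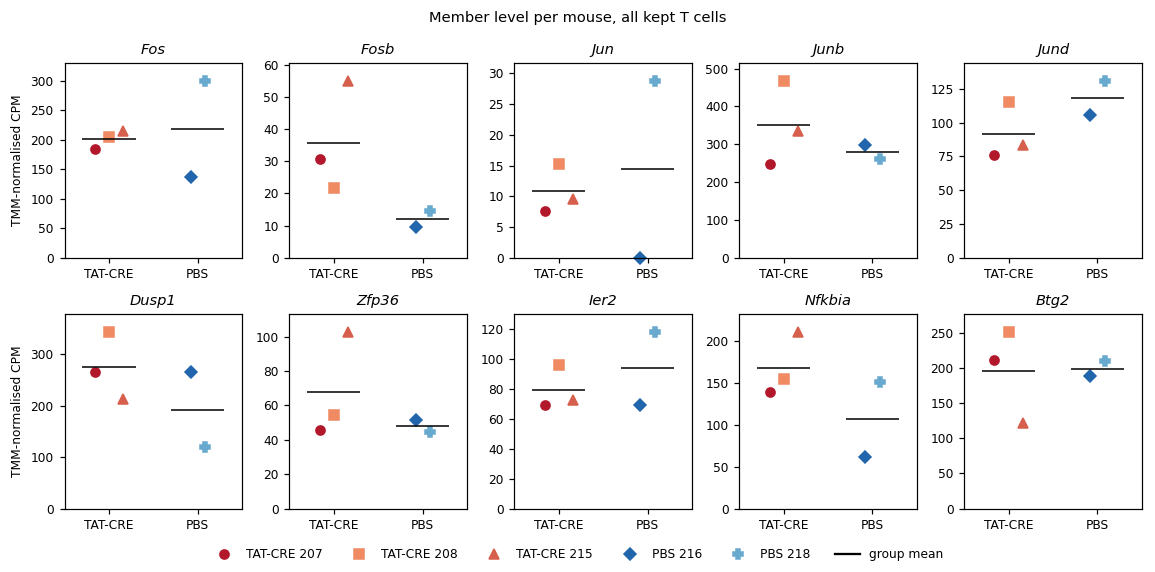
Level of each member per mouse over all kept cells (TMM-normalised CPM, linear axes from 0 that differ between panels), TAT-CRE mice left and PBS mice right; points are mice and black bars are group means. Only the Fosb panel shows all 3 TAT-CRE mice above both PBS mice.

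Within CD8 cells alone the edgeR test called 0 of 4013 genes (0%), with 123 at an unadjusted p under 0.05 (3.07%), and DESeq2 called 0. The groups did not overlap for Fosb and Jund among the members, and for 17.8% of all genes tested, 8.22% with all TAT-CRE mice above, as Fosb, and 9.57% with all below, as Jund. Fosb averaged 45.6 ± 22.7 CPM in TAT-CRE cells and 9.91 ± 3.90 CPM in PBS cells (log2 fold change 2.11 ± 1.12), from 31 and 7 UMIs. Jund averaged 76.8 ± 8.65 CPM in TAT-CRE cells and 96.1 ± 14.5 CPM in PBS cells (log2 fold change -0.32 ± 0.49). Junb had a log2 fold change of -0.31 ± 0.32 in CD8 cells, against 0.32 ± 0.28 over all cells, and kept these signs in all alternatives run (-0.53 to -0.12 in CD8 cells and 0.06 to 0.52 over all cells). Btg2 was at 0.43 ± 0.39 in CD8 cells and -0.03 ± 0.32 over all cells. All members had an edgeR adjusted p of 1 in CD8 cells, and the gap between CD8 cells and all cells was not tested.

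At 400 UMIs per cell the share of cells with at least 1 member was 31.3%, 42.4% and 29.1% in TAT-CRE 207, 208 and 215, against 28.0% and 35.0% in PBS 216 and 218. The means were 34.3 ± 7.11% in TAT-CRE mice, against 31.5 ± 4.98% in PBS mice, a difference smaller than the spread between mice. TAT-CRE 208, the highest, was also the mouse with the smallest share of ribosomal RNA; the part of that share in this value was not tested. Without thinning the means were 59.1 ± 2.54% in TAT-CRE mice, against 61.4 ± 12.3% in PBS mice.

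Most cells had a UMI of 0 or 1 of the members. Of the 1482 cells, 595 had a UMI of 0 members, 502 of 1, 247 of 2, 91 of 3 and 47 of 4 or more; the most in a single cell was 8. Having 2 or more members was seen in 43.5% of CD4 cells, 24.1% of CD8 cells and 25.2% of cells with neither transcript, at unmatched depth. By mouse the share with 2 or more was 28.9%, 22.1% and 23.5% in TAT-CRE 207, 208 and 215, against 19.3% and 36.9% in PBS 216 and 218, where PBS 218 is the deepest library.

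**Figure D3:**
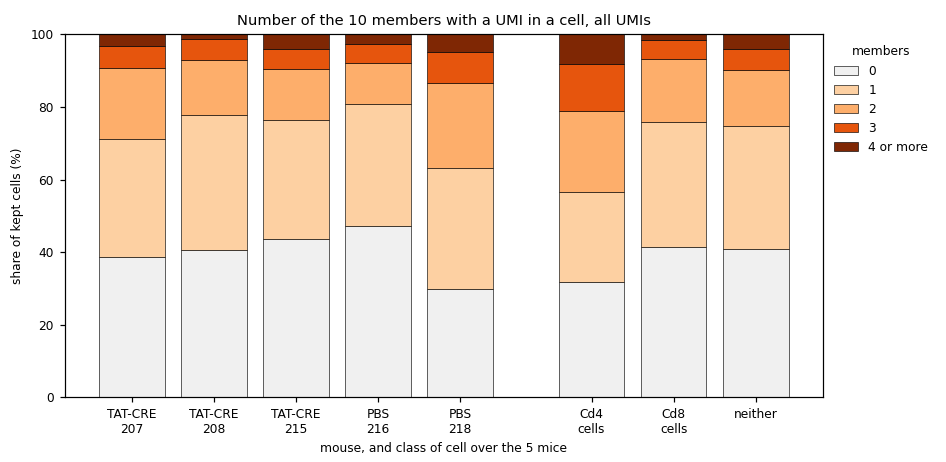
Share of kept cells (%) with a UMI of 0, 1, 2, 3 or 4 or more of the 10 members, at each cell's own depth, for TAT-CRE mice, then PBS mice, and for CD4 cells, CD8 cells and cells with neither transcript over the 5 mice. The bars of PBS 218 and of CD4 cells have the largest parts at 2 or more members (36.9% and 43.5%).

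Co-detection was measured as the odds ratio of finding both members of a pair in a cell, stratified by mouse (Mantel-Haenszel) after thinning to 400 UMIs; a value of 1 means that finding one member left the odds of finding the other unchanged. Over the 45 pairs the median odds ratio was 1.29, and 32 pairs were above 1. Without thinning the median was 1.61 and 42 pairs were above 1. Not every pair was lower after thinning: Junb and Nfkbia had 1.35 before it and 1.97 after it. The part of cell depth in the raw co-detection was not tested. The median over the 45 pairs, most of them with few cells expected, fell to 0.952 without TAT-CRE 215, so its side of 1 rests on that mouse. Odds ratios from such sparse counts are given as a description, with no test. CD4 cells, CD8 cells and the other cells of a mouse were pooled in them. The part of cell class in these values was not tested.

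Of the pairs, 9 were expected in 5 or more thinned cells, with odds ratios from 0.733 for Junb and Btg2 to 1.97 for Junb and Nfkbia. Their median was 1.38. Fos and Btg2, at 1.15 over all mice, fell to 0.789 without TAT-CRE 208. Without TAT-CRE 215 these 9 ran from 0.738 for Junb and Btg2, the only pair of them below 1, to 1.79 for Junb and Nfkbia. The value of Junb and Btg2 was 1.11 without TAT-CRE 208, 1.05 at 800 UMIs per cell and 1.4 without thinning, so its side of 1 rests on that mouse and on the depth chosen. Fos and Junb, potential partners in AP-1, shared 58 cells before thinning and had an odds ratio of 1.23 at matched depth, with a range of 0.629 to 1.41 over the mice. Dusp1 and Btg2 had an odds ratio of 1.43 and were above 1 in 5 of 5 mice (1.08 to 1.87), the only one of the 9 pairs to be so. A link between this value and the TGACGTCA in their promoters was not tested. Among the rarer pairs Ier2 and Btg2 were also above 1 in 5 of 5 mice (odds ratio 1.81, 3.71 cells expected). Junb and Dusp1 had 1.63 and Fos and Dusp1 1.46, while Fos and Nfkbia had 0.720. The highest values, up to 4.78 for Jun and Btg2, belong to pairs with Fosb or Jun, of which under 2 cells were expected.

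**Figure D4:**
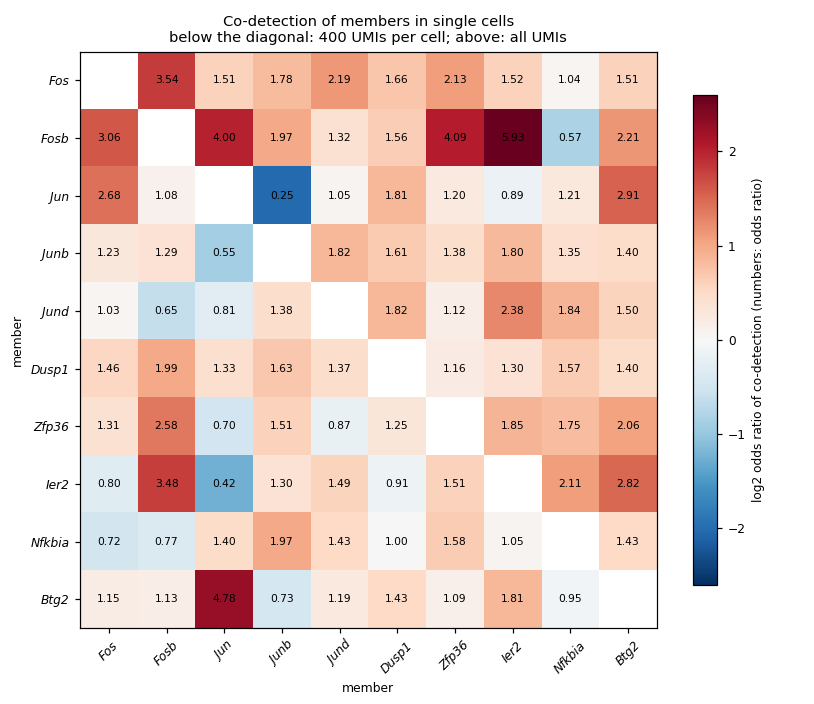
Odds ratio of co-detection for each pair of members (numbers in the cells; colour is its log2), stratified by mouse; below the diagonal at 400 UMIs per cell, above it with all UMIs. Values below the diagonal are mostly near 1, and the strongest colours fall on pairs with Fosb or Jun, which had UMIs in 28 and 14 cells.

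Genes with the detection pattern most like that of Fos and Junb were ranked by the same odds ratio among 510 genes found in at least 5% of thinned cells, after 4 ribosomal RNA genes present in nearly every cell were set aside. Nearest to Fos was Rgs2, a regulator of G protein signalling and itself an early gene, with an odds ratio of 2.46 and above 1 in 5 of 5 mice, against a median of 0.990 over the ranked genes. Gnb1 (1.82), Stk17b (1.76), H2afy (1.74), mt-Ti (1.74), Il7r (1.69), Mycbp2 (1.67), Leprotl1 (1.66), Tln1 (1.65) and Rpl22l1 (1.62) followed. Dusp1 ranked 25, Junb 83 and Btg2 132 of 510. At the other end stood Nkg7, a cytotoxic granule gene (0.499), Ifi47 (0.449) and Ostf1 (0.272), named here after their values were seen. The classes of cell were pooled in this ranking and in that for Junb, and the part of class was not tested.

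Nearest to Junb was Klf6, an early zinc finger factor, with an odds ratio of 1.75, then Arid1a (1.75), Rgs2 (1.70), Sh3kbp1 (1.68), Dusp1 (1.63), Ywhab (1.6), Zfp36l2 (1.59), Mcl1 (1.57), Akap13 (1.57) and Atp5g3 (1.56), against a median of 1.01. Klf6, Rgs2, Sh3kbp1 and Mcl1 were above 1 in 5 of 5 mice. Fos ranked 71 of 510, and Btg2 488, on the odds ratio with Junb that crossed 1 without TAT-CRE 208. Rgs2 thus appears beside both genes, and it was also higher in CD4 cells in 5 of 5 mice, at 622 ± 456 CPM, against 163 ± 66.5 CPM in CD8 cells (log2 fold change 1.68 ± 0.44, adjusted p = 0.167 by edgeR and 0.00351 by DESeq2).

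Other genes of the same response were read from lists chosen by role, and 0 genes of any list passed the edgeR test in any comparison. Of 17 other immediate early genes, 11 were tested between TAT-CRE and PBS cells, 6 higher and 5 lower (median log2 fold change 0.09). Egr1, a zinc finger factor driven by serum response factor, had the smallest p of them, at 71.1 ± 24.2 CPM in TAT-CRE cells and 134 ± 11.3 CPM in PBS cells (-0.92 ± 0.36, unadjusted p = 0.0257, edgeR adjusted p = 0.999). Rgs1, at 400 ± 64.8 against 284 ± 131 CPM, and Cd69, at 153 ± 27.0 against 115 ± 8.38 CPM, did not pass either (edgeR adjusted p = 0.999 for both).

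Of 17 other feedback inhibitors, 15 were tested and 13 had a positive log2 fold change (median 0.23). Over all 6341 genes tested, 50.2% were higher in TAT-CRE cells. The count of no list was tested against that share, and genes of a list can move together between libraries. Zfp36l1, a paralogue of Zfp36, had 164 ± 67.9 CPM in TAT-CRE cells and 92.9 ± 14.6 CPM in PBS cells (0.80 ± 0.38), and Socs3, an inhibitor of cytokine signalling, 40.7 ± 16.4 and 18.8 ± 11.4 CPM (1.13 ± 0.68), each with an edgeR adjusted p of 0.999. Among other AP-1 and related bZIP genes 5 of 12 were tested, 1 higher and 4 lower (median -0.50), with Batf at 24.3 ± 8.96 CPM in TAT-CRE cells and 41.9 ± 30.4 CPM in PBS cells. MAP kinases and upstream factors had 9 of 14 tested genes higher (median 0.11), and Elk4, a partner of serum response factor, stood at 120 ± 20.3 against 75.2 ± 0.549 CPM. Heat shock genes had 7 of 9 tested genes lower (median -0.19), among them Hsp90aa1 at 225 ± 46.7 CPM in TAT-CRE cells and 322 ± 121 CPM in PBS cells.

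Between CD4 and CD8 cells, 7 heat shock genes were tested, 2 higher and 5 lower in CD4 cells (median log2 fold change -0.58). Of all 731 genes tested, 41.9% were higher in CD4 cells. Hsp90ab1 had the smallest p of them, at 1514 ± 739 CPM in CD4 cells and 2028 ± 493 CPM in CD8 cells (-0.47 ± 0.20, unadjusted p = 0.0351, edgeR adjusted p = 0.612). Dnajb1, an Hsp40 chaperone, had 219 ± 214 CPM in CD4 cells and 81.5 ± 38.4 CPM in CD8 cells (log2 fold change 1.24 ± 0.64, edgeR adjusted p = 0.842), while Dnaja1, at 147 ± 135 and 277 ± 39.2 CPM, went the other way (-1.08 ± 0.53, edgeR adjusted p = 0.816). Tnfaip3, an NF-kappaB inhibitor, was higher in CD4 cells in 0 of 5 mice (269 ± 151 CPM in CD4 cells, 402 ± 94.5 CPM in CD8 cells, edgeR adjusted p = 0.859), where 5.61% of all genes tested were lower in CD4 cells in 5 of 5 mice. Klf6, the gene nearest to Junb within cells, had 263 ± 193 CPM in CD4 cells and 298 ± 46.4 CPM in CD8 cells (-0.34 ± 0.48, edgeR adjusted p = 0.981).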

How the data were processed

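The authors deposited UMI counts per gene and well, not normalised, for 1 plate per mouse. Build mm10 and bcl2fastq 2.15.0.4 are named in the submitters' processing notes; the aligner, the annotation and the use of strand are not given there. A deposited table lists each well's barcode and how many cells it received. Replicate numbers differ between the groups, and nothing says whether a library pooled animals, so p-values measure the spread between these libraries.

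Wells were kept if they held 1 cell, 400 or more UMIs without spike-ins and 30% or less mitochondrial UMIs (1482 cells; 362457 to 839188 UMIs per mouse). The 5 libraries differed beyond sampling noise in every pair (chi-square per degree of freedom 4.42 to 13.4). Doublets were not called, since wells were sorted with 1 cell. Intervals and limits for a count of 0 (3 counts) cover counting error only.

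Counts were summed per mouse, or per mouse and class, and tested with edgeR 4.0.16 (TMM, filterByExpr, quasi-likelihood, Benjamini-Hochberg over all genes) in R 4.3.3, with DESeq2 1.42.0 as an alternative. The edgeR script was tested on simulated data with 100 genes changed 2-fold and 100 changed 4-fold in each comparison. Between TAT-CRE and PBS it called 1% and 16% of these over all cells, and 0% and 0% in CD8 cells. Between CD4 and CD8 cells it called 28% and 90%. A count of 0 genes called between treatments therefore does not show that changes of such size were absent. The classes come from the same mice, which are the block in that fit. Thinned shares are exact expectations, not draws (Python 3.11.15, numpy 2.4.6, scipy 1.17.1, pandas 2.3.3).

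Members, lists and tests were chosen with earlier results of these data known. Named genes are the members, the 10 genes nearest to Fos and to Junb by odds ratio, and of each list those called or, with none called, up to 4 with the smallest p. Gene coordinates are from GENCODE M21; 15260 of 15952 genes were found there by name. Promoters are from the RefSeq table.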

Additional observations from a re-analysis of the deposited data

Results flagged for a closer look

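Wells left out for more than 30% mitochondrial UMIs, 195 in all, were in no main comparison, and members had UMIs in them. The members named in the next sentence were in more of these wells than the limit for a count of 0 (1.54%). Any gene seen in a few wells exceeds that limit. Junb had a UMI in 13.8% of these wells, Btg2 in 10.8%, Dusp1 in 10.3%, Nfkbia in 9.74%, Fos in 9.23%, Jund in 8.21%, Zfp36 in 6.15% and Ier2 in 2.05%. The wells had a median of 1046 UMIs, against 1662.5 in kept cells. At a matched 400 UMIs the shares were 7.36% in these wells and 9.35% in kept cells for Junb, 6.66% and 7.06% for Dusp1, and 5.27% and 5.53% for Fos. In the same order they were 5.08% and 5.67% for Btg2, 3.29% and 3.76% for Jund, and 1.25% and 2.41% for Ier2. Zfp36, at 3.67% and 1.83%, and Nfkbia, at 4.42% and 4.17%, were higher in these wells. So was Fosb, at 1.25% and 0.641%, while Jun was lower, at 0.141% and 0.41%. Zfp36 had a UMI in 12 of these wells, Fosb in 3 and Jun in 1. The shares were not split by mouse, and PBS 218 gave 4 of these wells but 274 of the kept cells. No test was run on these shares.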

How the results depend on the processing

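Between TAT-CRE and PBS cells, the count of 0 genes called became 2 with DESeq2, 8 without the filter on low counts and 1 without cells with another cell type's marker UMI; in CD8 cells it became 1 without the filter. Between CD4 and CD8 cells, 5 genes became 22 with DESeq2 and 60 without the filter, where the median log2 fold change was -1.27 over all genes and -0.88 over the 731 of the main test, beside 0.68 for Fos and 0.43 for Junb. DESeq2 put Fos (1.47) and Junb (1.25) past the threshold; over all alternatives the adjusted p ran from 0.0124 to 0.961 for Fos and from 0.0455 to 0.991 for Junb, and both stayed positive. Without the replicate block for the mouse, 5 genes were called and Fos and Junb were each at 1.52. TAT-CRE and PBS mice share no replicate number, so nothing pairs them.

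None of the members was called by edgeR in the main fits, and the log2 fold changes of some turned sign. Leaving out 1 mouse at a time gave, over all cells, -0.58 to 0.56 for Fos, -1.43 to 5.56 for Jun, -0.59 to 0.19 for Ier2 and -0.25 to 0.23 for Btg2. In CD8 cells it gave -0.64 to 0.70 for Fos, -0.14 to 0.96 for Dusp1, -0.36 to 0.60 for Zfp36 and -0.97 to 0.27 for Ier2, and for CD4 against CD8 cells -0.67 to 0.76 for Nfkbia. Without the mitochondrial limit, Fos was at 0.01 and Btg2 at 0.03 over all cells. Without cells with another type's marker, Ier2 was at 0.01 over all cells, and Fos at 0.26, Jund at 0.10, Zfp36 at -0.17 and Ier2 at 0.28 in CD8 cells. With CD8 cells told by Cd8a alone, Jund was at 0.13. Without the filter, Nfkbia was at -0.73 and Btg2 at -0.12 in CD4 against CD8 cells. The cause of these shifts was not tested. Fosb was positive in the 13 alternatives run over all cells (1.11 to 1.88) and in the 10 of 14 that kept it in CD8 cells (1.78 to 2.55); it gave no value there at 800 UMIs, with Cd8a alone, or without TAT-CRE 208 or 215. The median odds ratio of co-detection over the 45 pairs ran from 0.952 to 1.39 over mice left out. Few UMIs per gene and cell, few mice and 85 CD4 cells limit what these data can show.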
